A study of Mus musculus with 71 samples.

Results

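The ventral spinal cord is laid out during development as bands of neural progenitors, set by a gradient of Sonic hedgehog from the ventral midline. The pMN band, which makes the transcription factor Olig2, gives motor neurons and later oligodendrocyte precursors, while the p2, p1 and p0 bands lie progressively further dorsal and give different classes of ventral interneurons. Cells of each band keep a characteristic set of regulatory DNA open, and open DNA can be read by letting the transposase Tn5 cut and tag it, as in ATAC-seq. The comparison described here asks how far the open DNA of the bands differed from each other in mutant cells on day 9 of differentiation, in the 3 pairings of pMN, p2 and p0-p1.

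The members are the 6 libraries of MUT NFIAn cells on day 9, out of 71 libraries in the series, with 2 libraries each for pMN, p2 and p0-p1; they were chosen by their labels and not by any measured value. Mouse embryonic stem cells of the MUT or WT genotype were differentiated toward ventral spinal cord with the same agents in all groups: the growth factor bFGF, the Wnt pathway activator CHIR99021, retinoic acid (RA), and SAG, a small molecule that activates the Sonic hedgehog pathway. Cells were fixed, exposed to Tn5, stained with antibodies to intracellular markers, and separated into the populations by sorting before libraries were made. Which gene is mutated is not named in the labels. The groups set beside the members were MUT NFIAn cells of days 5, 7 and 11 with 3 libraries per population on each day, and WT NFIAn cells of day 9 with 2 pMN, 3 p2 and 3 p0-p1 libraries. NFIAn and NFIAp are the labels' tags for cells without and with the transcription factor NFIA, and all MUT groups carry the NFIAn tag. The labels do not say whether the 2 libraries of a group came from separate cultures, so the p-values measure only the spread between libraries, which may be technical.

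The data are a table of 155738 numbered intervals of the mouse genome with a normalised read count in each library, that is, the number of reads divided by 1 factor per library. The table gives no position and no gene for an interval, so intervals are called by their numbers, and the sorted populations were not checked against marker genes. The 6 libraries held between 23485081 and 26426161 reads in the intervals, against 20034731 to 31315134 over all 71 libraries. The top 1% of intervals took 16.0% to 16.6% of a library's total in the 6 MUT libraries. In 5 consecutive intervals, Interval_143053 to Interval_143057, the 6 MUT libraries held 0 or 1 reads in all, against 165 to 287 in the WT NFIAn libraries of day 9. This stretch was picked by a low median over the libraries labelled MUT and a high median over those labelled WT. The 6 libraries took part in that choice, so their low counts there are no independent check of their labels. MUT day 7 pMN replicate 3 held 213 reads there and WT day 7 pMN replicate 3 held 0, which goes against the label of each. A further library, WT day 9 p2 NFIAp replicate 2, lay at a root mean square log2 distance of 0.45 to the mean of the WT pMN NFIAp libraries and of 0.60 to that of the other p2 NFIAp libraries, which lay 0.58 from each other and 0.48 and 0.58 from the pMN mean. The distances are not like for like, because replicates 1 and 3 were each set against a single p2 library but against a mean of pMN libraries. A single library varies more than a mean, so no ranking is read for replicates 1 and 3. Replicate 2 lay nearest to the pMN mean and was counted as doubted without a fixed rule. The counts of calls, shares and median differences on MUT day 7 are given with and without these 3 doubted libraries.

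Each population's libraries lay together and apart from the others. Over all 155734 tested intervals, 67.0% of the variation among the 6 libraries lay between populations and 33.0% between replicates. The first principal component, with 43.5% of the variance, placed pMN at 140 and 113, p2 at −5.02 and −43.2, and p0-p1 at −90.2 and −114. The second component, with 25.4%, placed p2 at −60.8 and −130, while pMN lay at 50.8 and 5.56 and p0-p1 at 71.8 and 63.0. Thus p2 lay between pMN and p0-p1 on the first axis and on a side of its own on the second. Each of the 6 libraries was also nearer to the WT day 9 NFIAn mean of its own population than to the means of the other populations, measured as the root mean square difference of log2 levels. That distance was 0.46 and 0.51 to the own population for the pMN libraries, 0.41 and 0.46 for p2, and 0.41 and 0.42 for p0-p1, against 0.54 to 0.75 to the other populations.

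**Figure D1:**
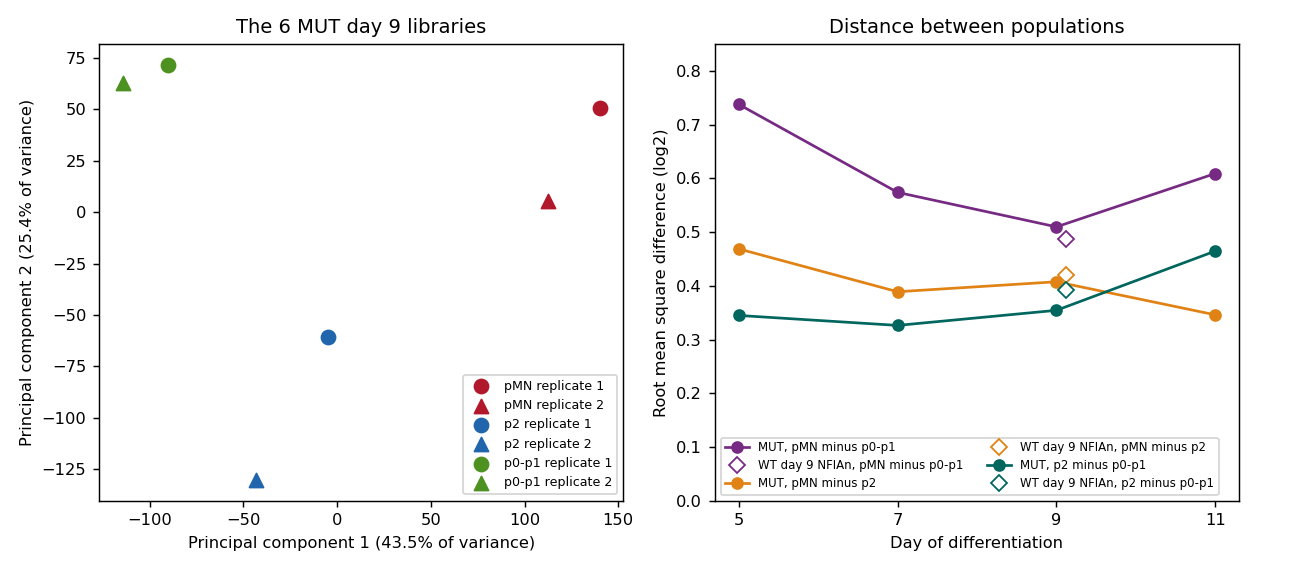
Left, the 6 MUT day 9 libraries on the first 2 principal components of their log2 levels, with 1 point per library. Right, the root mean square log2 difference between population means on each day in MUT cells, with WT day 9 NFIAn cells as open diamonds; on day 9 the values in MUT cells are 0.51 for pMN and p0-p1, 0.41 for pMN and p2, and 0.35 for p2 and p0-p1.

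On MUT day 9 the contrast was largest between pMN and p0-p1, the bands furthest apart. The 2 other pairs lay closer to each other, and their ranges without 1 library overlapped. The root mean square of the log2 difference was 0.51 between pMN and p0-p1, 0.41 between pMN and p2, and 0.35 between p2 and p0-p1, after the part expected from replicate spread was taken off. Without that correction the differences between libraries of the same replicate number ranged from 0.50 to 0.65, and the differences between the 2 replicates of a population were 0.42, 0.44 and 0.42 for pMN, p2 and p0-p1. In WT NFIAn cells of day 9 the 3 corrected values were 0.49, 0.42 and 0.39, in the same order. Over the MUT days 5, 7, 9 and 11 the pMN and p0-p1 value was 0.74, 0.57, 0.51 and 0.61. The pMN and p2 value was 0.47, 0.39, 0.41 and 0.35, and the p2 and p0-p1 value was 0.34, 0.33, 0.35 and 0.46. The difference between pMN and p0-p1 was thus smallest on day 9 among the 4 MUT days, which was not tested, and the day 7 values without the doubted libraries were 0.57, 0.38 and 0.33 in the order of the pairs above.

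Across the 3 populations, 17737 of 155734 intervals, or 11.4%, changed by limma's F-test on log2(value + 5) (Benjamini-Hochberg adjusted p under 0.05), where the highest and lowest of the 3 means also had to lie at least 1 log2 unit apart. In these sorted bulk samples, a lower count in an interval can come from fewer cells with the interval open or from less open DNA per cell, and these cannot be told apart. Among the changed intervals pMN was the lowest population in 57.5%, p2 in 12.3% and p0-p1 in 30.2%, against 35.3%, 28.1% and 36.6% among all tested intervals. The highest population was pMN in 25.02%, p2 in 32.7% and p0-p1 in 42.3%, against 35.8%, 30.5% and 33.7% among all tested intervals. The intermediate place belonged to p2 in 55.0% of the changed intervals, against 41.4% of all tested intervals. The most frequent pattern was highest in p0-p1 and lowest in pMN, with 6270 intervals, or 35.3% against 20.0% of all tested intervals. Next came highest in p2 and lowest in pMN, with 3936, or 22.2% against 15.4%. The pattern highest in pMN and lowest in p0-p1 had 3493, or 19.7%, which was below its 21.4% among all tested intervals. Patterns with p2 at the bottom were the least frequent, with 945 intervals highest in pMN (5.33% against 14.4% of all tested intervals) and 1232 highest in p0-p1 (6.95% against 13.7%). The share of changed intervals was 6.64%, 13.2%, 16.4% and 9.35% in 4 classes of equal size by mean count, ordered low to high, so that intervals of intermediate count contributed most.

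Against p0-p1, pMN cells were lower at more intervals than they were higher. In pMN, 4603 intervals were higher than in p0-p1, which is 2.96% of those tested, and 8644 were lower, which is 5.55%, by limma with an adjusted p under 0.05 and a log2 difference of at least 1. The median log2 difference of all tested intervals was 0.01, and the median standard error was 0.32. Without p0-p1 replicate 2 the higher count was 3034. Without pMN replicate 1 the lower count was 5235, and without p0-p1 replicate 2 it was 5478; the library left alone is assumed to vary like the other groups. The share of higher calls was 34.7%, and it ranged from 30.9% to 41.1% over the scalings and filters tried.

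The intervals named here are those with the largest differences among intervals of at least median mean count whose libraries do not overlap between the 2 groups, 4 per direction and comparison, and 2 intervals per population that stood furthest above, or furthest below, both other populations. Interval_10132 had 354 and 297 normalised reads in the pMN libraries, 58.9 and 29.8 in the p2 libraries, and 22.1 and 4.53 in the p0-p1 libraries. It was open in pMN, weak in p2 and weakest in p0-p1, with no overlap between pMN and the others. Its log2 difference between pMN and p0-p1 was 4.36 with a standard error of 0.49 (limma, adjusted p = 8.57e-10). Interval_2440 had 114 and 141 normalised reads in pMN, 9.50 and 3.72 in p2, and 3.85 and 6.34 in p0-p1. Here p2 and p0-p1 overlapped each other and pMN stood alone, and the log2 differences of pMN were 3.72 to p0-p1 and 3.55 to p2. Interval_58546 and Interval_141129 were also high in pMN alone, with 106 to 172 normalised reads in pMN, 10.5 to 14.9 in p2 and 3.85 to 9.62 in p0-p1.

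Intervals lower in pMN than in p0-p1 included graded ones and ones open in p0-p1 alone. Interval_120928 had 2.96 and 5.27 normalised reads in pMN, 36.1 and 26.1 in p2, and 164 and 119 in p0-p1. It showed a graded order, with p2 between the others in each library, and its log2 difference between pMN and p0-p1 was −4.00 with a standard error of 0.39 (limma, adjusted p = 1.57e-11). Interval_119385 was graded in the same way, with 1.97 and 13.2 in pMN, 46.6 and 49.3 in p2, and 177 and 129 in p0-p1. Interval_145463, by contrast, had 16.8 and 22.8 normalised reads in pMN, 32.3 and 27.0 in p2, and 297 and 299 in p0-p1. Both pMN and p2 were low there, and they differed by −0.49 on the log2 scale, which did not pass the test (limma, adjusted p = 0.481, standard error 0.32). Interval_128131 had the same layout, with 12.8 and 14.9 in pMN, 22.8 and 29.8 in p2, and 224 and 191 in p0-p1, as did Interval_18367 with 1.76 to 3.95, 8.55 to 9.30 and 78.9 to 88.8.

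Against p2, pMN cells were lower at most of the intervals that changed. In pMN, 2048 intervals were higher than in p2, or 1.32%, and 6007 were lower, or 3.86%. Without p2 replicate 2 these counts were 971 and 2171, and without pMN replicate 1 they were 1249 and 2847, so the 2 libraries carried much of both counts. The share of higher calls was 25.4%, and it ranged from 21.4% to 31.0% over the scalings and filters tried.

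Interval_59792 is an example on the higher side, with 82.9 and 131 normalised reads in pMN, 5.70 and 3.72 in p2, and 5.77 and 8.15 in p0-p1. Interval_133561, with 124 and 174 in pMN, 11.4 and 13.0 in p2, and 9.62 and 12.7 in p0-p1, was again high in pMN alone. Interval_69573 had 78.9 and 89.5 in pMN, 4.75 and 5.58 in p2, and 3.85 and 8.15 in p0-p1. In all of these both p2 and p0-p1 were low, and their log2 difference, p2 minus p0-p1, lay between −0.30 and 0.10 with standard errors of 0.40 to 0.42 and did not pass the test.

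The intervals with the largest deficits in pMN against p2 differed in their p0-p1 level. Interval_152633 had 7.89 and 10.5 normalised reads in pMN, 116 and 170 in p2, and 73.1 and 81.5 in p0-p1. It was open in both p2 and p0-p1 and nearly closed in pMN, with a log2 difference between pMN and p2 of −3.36 and a standard error of 0.34 (limma, adjusted p = 5.58e-10). Interval_123167 had the same layout, with 9.86 and 15.8 in pMN, 133 and 200 in p2, and 78.9 and 105 in p0-p1. Interval_140035, however, had 20.7 and 24.6 in pMN, 166 and 296 in p2, and 31.7 and 39.0 in p0-p1, so that p2 alone was high. Interval_90728 lay between these layouts, with 3.95 and 7.90 in pMN, 76.0 and 125 in p2, and 23.1 and 26.3 in p0-p1. The intervals furthest below both other populations in pMN were Interval_89664, with 21.7 and 17.6 in pMN, 185 and 199 in p2, and 286 and 228 in p0-p1, and Interval_71256, with 13.8 and 18.4, 121 and 169, and 221 and 181 in the same order.

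The fewest intervals changed between p2 and p0-p1. In p2, 2973 intervals were higher than in p0-p1, or 1.91%, and 2407 were lower, or 1.55%. Without p2 replicate 2 the counts were 766 and 1043. Without p0-p1 replicate 1 the higher count was 1570, without p0-p1 replicate 2 the counts were 1627 and 679, and without p2 replicate 1 the lower count was 1313. The share of higher calls was 55.3%, but it was 46.2% with equal library totals and 72.1% with a minimum mean value of 30, so no direction is given for this pair.

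Interval_66643 had 9.86 and 9.65 normalised reads in pMN, 94.1 and 127 in p2, and 7.69 and 5.44 in p0-p1. It was open in p2 alone, and p2 exceeded p0-p1 by 3.31 on the log2 scale with a standard error of 0.38 (limma, adjusted p = 1.67e-08). Interval_15981 and Interval_54458 were likewise high in p2, with 80.8 to 220 normalised reads there, against 13.2 to 23.7 in pMN and 8.66 to 25.4 in p0-p1. Interval_103677 had 34.5 and 43.9 in pMN, 89.3 and 146 in p2, and 12.5 and 9.06 in p0-p1, with pMN in the middle. Interval_56322 showed yet another layout, with 237 and 188 in pMN, 258 and 217 in p2, and 31.7 and 15.4 in p0-p1. Here pMN and p2 overlapped and p0-p1 alone was low, as at Interval_8429, where pMN had 47.3 and 79.9, p2 had 55.1 and 75.4, and p0-p1 had 6.73 and 7.25.

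Among the intervals lower in p2 than in p0-p1, Interval_109799 had 9.86 and 13.2 normalised reads in pMN, 6.65 and 10.2 in p2, and 119 and 90.6 in p0-p1, so that p0-p1 was high and the others overlapped. Intervals lowest in p2 were the least frequent kind, and Interval_132147, which stood furthest below both other populations, had 163 and 237 normalised reads in pMN, 32.3 and 47.5 in p2, and 118 and 124 in p0-p1. Its p2 level was lower than pMN by a log2 difference of 2.19 (pMN minus p2) and lower than p0-p1 by one of −1.51 (p2 minus p0-p1), with adjusted p-values of 1.01e-05 and 0.00432 by limma. The p2 minus p0-p1 call was lost without p2 replicate 1 (adjusted p = 0.0956) and without p0-p1 replicate 2 (adjusted p = 0.0609). Interval_36298 had 47.3 and 26.3 in pMN, 13.3 and 11.2 in p2, and 44.2 and 43.5 in p0-p1. Its pMN minus p2 call was lost without p2 replicate 1, p2 replicate 2 or pMN replicate 1 (limma, adjusted p = 0.0612, 0.218 and 0.436). Interval_104169 had 36.5 and 55.3 in pMN, 12.4 and 22.3 in p2, and 170 and 164 in p0-p1.

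**Figure D2:**
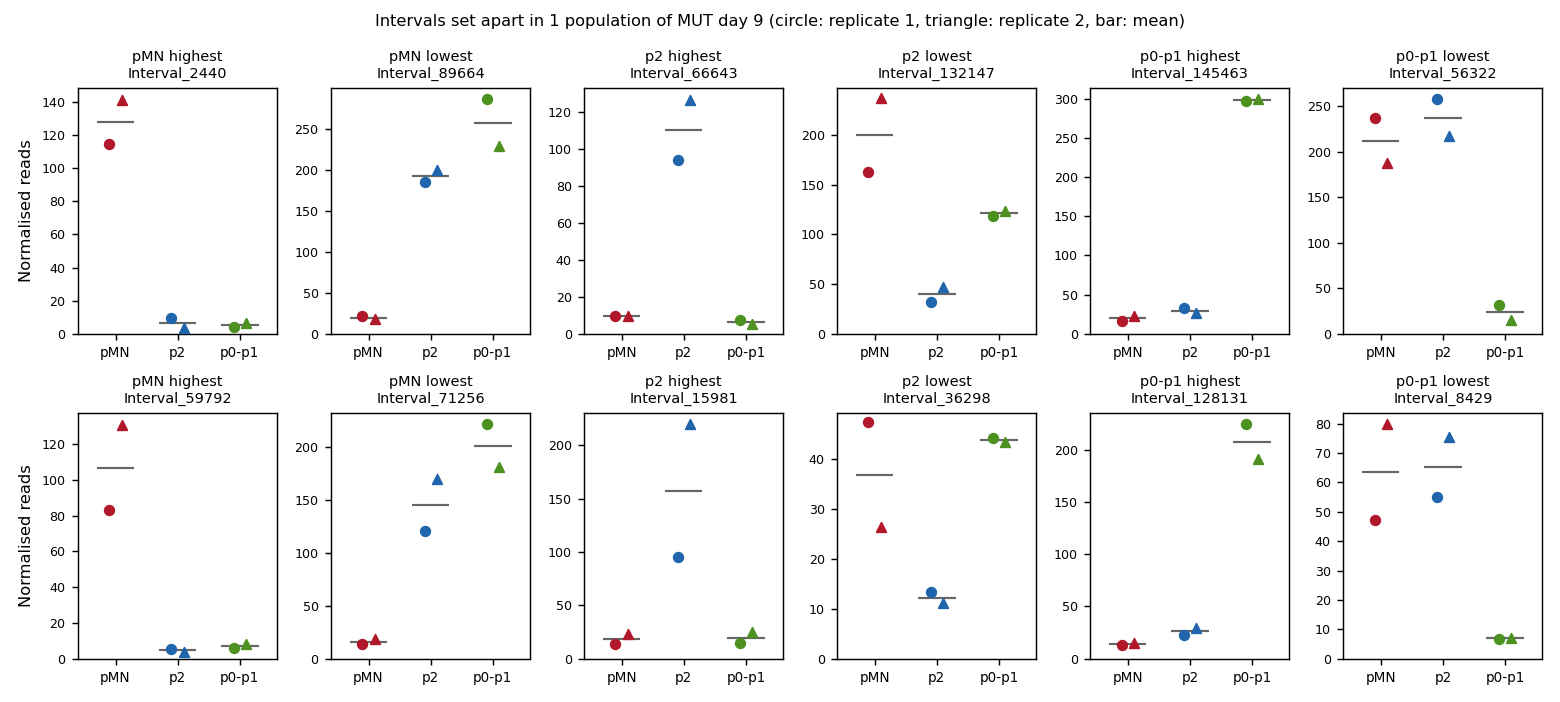
Normalised read counts in the 6 MUT day 9 libraries for 12 named intervals, 2 for each way in which 1 population can stand above or below both others; each point is 1 library and the populations run pMN, p2, p0-p1. At Interval_2440, for example, pMN has 114 and 141 and all other libraries lie under 10, while at Interval_66643 p2 alone is high.

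Where a comparison chose the intervals, the levels of the population left out took no part in the choice. A choice of ends that lie far apart by itself favours a place between them. Among all tested intervals p2 was the middle population at 41.4%. At the 4603 intervals higher in pMN than in p0-p1, p2 lay at a median of 0.37 of the way up, counted from 0 at the p0-p1 mean to 1 at the pMN mean. The 2 p2 libraries gave 0.41 and 0.33, and p2 was between the other means at 84.2% of these intervals. At the 8644 intervals lower in pMN, p2 lay at 0.53 of the way from pMN to p0-p1, with 0.49 and 0.57 in its libraries, and was between them at 80.5%. So p2 was intermediate in both directions, a little nearer to p0-p1 at the intervals that pMN gained.

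The population left out was not always intermediate in the other pairs. At the 2048 intervals higher in pMN than in p2, p0-p1 lay at −0.00 on the scale from p2 at 0 to pMN at 1, that is, at the level of p2. At the 6007 intervals lower in pMN than in p2 it lay at 0.60 of the way from pMN to p2, and at or above p2 at 24.6% of them. At the 2973 intervals higher in p2 than in p0-p1, pMN lay at 0.29, with 0.22 and 0.37 in its libraries, and this value was 0.58 without p2 replicate 2. At the 2407 intervals lower in p2 than in p0-p1, pMN lay at −0.01, at the level of p2. Intervals high in pMN against p2 were thus mostly high in pMN alone, intervals low in p2 against p0-p1 were mostly low in pMN as well, and intervals low in pMN were spread from p2-only to shared with p0-p1. The ends of each scale are the means that chose the intervals, and these positions are a description.

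**Figure D3:**
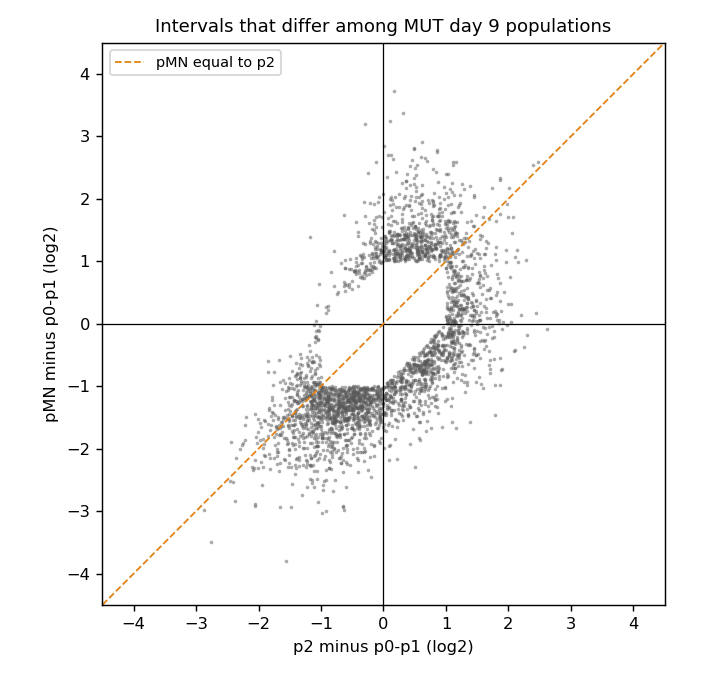
Log2 differences of p2 minus p0-p1 (horizontal) and pMN minus p0-p1 (vertical) on MUT day 9 for 3000 of the 17737 changed intervals, drawn at random; the dashed line marks equal levels in pMN and p2. Points below both 0 on the vertical axis and the dashed line are the intervals with pMN lowest, which is the case for 57.5% of the changed intervals.

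The same populations in WT NFIAn cells of day 9, which share no library with the members, differed at these intervals in the same direction. In WT NFIAn cells pMN was higher than p0-p1 at 2958 intervals (1.9%) and lower at 9675 (6.21%), higher than p2 at 1635 (1.05%) and lower at 7478 (4.8%), and p2 was higher than p0-p1 at 3056 (1.96%) and lower at 3676 (2.36%). The groups differ in size, so these counts are not compared. Of the intervals called in MUT cells, 98.1% to 99.4% had the same sign of the difference in WT cells in each of the 6 lists. Among all tested intervals with that sign in MUT cells, called or not, the share was 68.9% to 75.2%. The highest population in MUT was also the highest in WT at 93.0% of the 17737 changed intervals, against 64.3% of all tested intervals, and the lowest was the same at 81.9%, against 59.3%. The WT NFIAp cells of day 9 have no p0-p1 libraries. At the intervals higher and lower in MUT pMN than in MUT p2, their median differences were 0.66 and −0.37, against 0.98 and −1.33 in WT NFIAn cells. Without the doubted libraries the NFIAp medians were 0.90 and −0.54. The sign was shared at 93.3% and 86.7% with all libraries.

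The WT values that follow are those of NFIAn cells. The median log2 difference at intervals higher in pMN than in p0-p1 was 1.29 in MUT cells and 0.93 in WT cells, and at those lower it was −1.34 in MUT cells and −1.23 in WT cells. For pMN against p2 the medians were 1.33 in MUT and 0.98 in WT at the higher intervals, and −1.35 in MUT and −1.33 in WT at the lower ones. For p2 against p0-p1 they were 1.29 in MUT and 1.11 in WT at the higher intervals, and −1.33 in MUT and −1.16 in WT at the lower ones. The intervals were chosen for a large difference in MUT, which by itself makes the MUT value the larger one. Chosen in WT instead, the intervals higher in pMN than in p0-p1 had a median of 1.27 in MUT and 1.24 in WT, and those lower had −1.17 in MUT and −1.30 in WT. For pMN against p2 the medians at WT-chosen intervals were 1.18 in MUT and 1.22 in WT for the higher, and −1.16 in MUT and −1.33 in WT for the lower; for p2 against p0-p1 they were 1.16 in MUT and 1.23 in WT, and −1.05 in MUT and −1.23 in WT. The list of intervals higher in pMN than in p0-p1 shared 1994 intervals between genotypes, which is 43.3% of the MUT list and 67.4% of the WT list. Of all tested intervals, 2.96% were called higher in MUT and 1.9% in WT. The list of lower intervals shared 5855, which is 67.7% of the MUT list and 60.5% of the WT list, where 5.55% and 6.21% of all tested intervals were called. For the other pairs the shared part was 47.1% to 73.8% of the MUT lists and 41.8% to 59.3% of the WT lists. The groups differ in size, which by itself affects these shares.

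At the 4603 intervals higher in MUT pMN than in MUT p0-p1, the MUT pMN libraries had median log2 levels of 6.09 and 6.18, and the WT pMN libraries had 5.43 and 5.78. The p2 libraries had 5.26 and 5.23 in MUT and 4.96 to 5.02 in WT, and the p0-p1 libraries had 4.71 and 4.69 in MUT and 4.57 to 4.69 in WT. The intervals were chosen in MUT, and these levels are a description; over all tested intervals the MUT pMN libraries had median levels of 5.07 and 5.09 and the WT pMN libraries 4.93 and 4.95.

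No interval passed the test of a population difference that changed between the genotypes. The test of the difference itself, the MUT day 9 difference minus the WT day 9 NFIAn one, called 0 intervals (0%) for pMN minus p0-p1, 0 (0%) for pMN minus p2 and 0 (0%) for p2 minus p0-p1. At an unadjusted p under 0.05 limma gave 3985, 3118 and 2624 intervals, which is 2.56%, 2.00% and 1.68% of those tested. Each share lies below the 0.05 that well-scaled p-values give on average where nothing differs. The test may thus be strict here, and the 0 calls do not show that the genotypes were alike. The quasi-likelihood test of edgeR on recovered reads also called 0 in each, with 3844, 3092 and 2640 at an unadjusted p under 0.05, and DESeq2 called 0 with 1628, 1006 and 722. The median standard error of such a difference was 0.43, 0.43 and 0.41 on the log2 scale. At Interval_10132, for example, pMN minus p0-p1 was 4.36 in MUT and 4.07 in WT, a difference of 0.29 with a standard error of 0.66. At Interval_66643 p2 minus p0-p1 was 3.31 in MUT and 2.37 in WT, a difference of 0.94 with a standard error of 0.50. The widest gap among the named intervals was at Interval_8429, where pMN minus p0-p1 was 2.48 in MUT and 1.16 in WT, a difference of 1.32 with a standard error of 0.44 that did not pass the adjusted test.

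**Figure D4:**
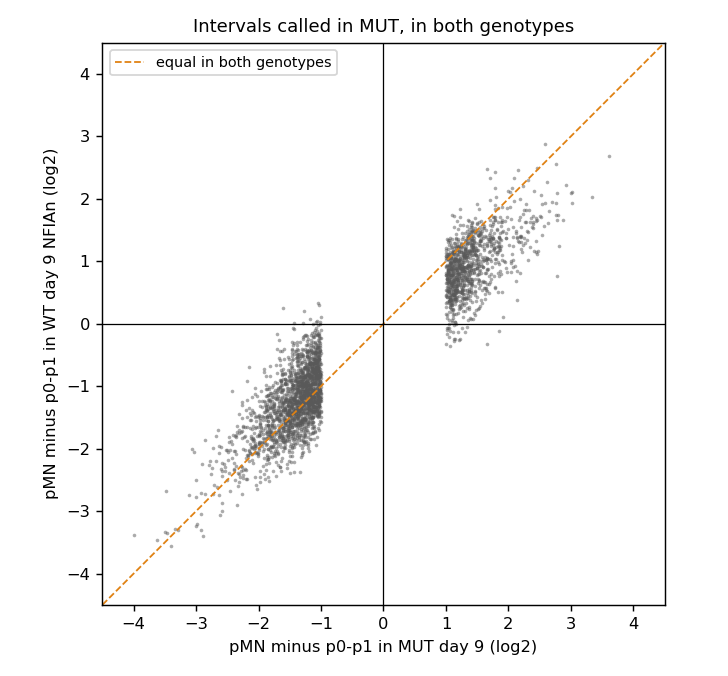
Log2 difference of pMN minus p0-p1 in MUT cells of day 9 (horizontal) and in WT NFIAn cells of day 9 (vertical) for 3000 intervals drawn at random from those called in MUT cells; the dashed line marks equality. The sign is the same in both genotypes at 98.1% of the higher and 99.3% of the lower intervals.

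The lists called on day 9 differed in their median differences on the other days of the MUT cells. They were chosen for a large difference in the day 9 libraries, which by itself favours the largest median on day 9. No peak on day 9 is therefore read from these medians. On day 7, pMN was higher than p0-p1 at 8195 intervals (5.26%) and lower at 8830 (5.67%), higher than p2 at 3503 (2.25%) and lower at 3972 (2.55%), and p2 was higher than p0-p1 at 2677 (1.72%) and lower at 1689 (1.08%). On day 11 the counts were 7405 (4.75%) and 11883 (7.63%) for pMN against p0-p1, 1018 (0.654%) and 4460 (2.86%) for pMN against p2, and 3983 (2.56%) and 6152 (3.95%) for p2 against p0-p1, each as higher and lower. Without the doubted libraries the day 7 counts were 8761 and 8754, 3621 and 3864, and 2689 and 1696 for the same pairs. Days 7 and 11 have 3 libraries per population, which by itself allows more calls than the 2 of day 9.

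At the intervals higher in pMN than in p0-p1 on day 9, the median log2 difference over days 5, 7, 9 and 11 was 0.88, 1.24, 1.29 and 0.70, and without MUT day 7 pMN replicate 3 the day 7 value was 1.27. Of these 4603 intervals, 62.6% were also called higher on day 7, where 5.26% of all tested intervals were, and 34.5% on day 11, where 4.75% were. In the intervals lower in pMN than in p0-p1 the medians were −0.40, −0.998, −1.34 and −1.14. Of these, 49.9% were also called lower on day 7, against 5.67% of all tested intervals, and 58.8% on day 11, against 7.63%. Without the doubted libraries the day 7 shares were 63.9% of the higher list and 49.4% of the lower list, whose day 7 median was −0.99. Both lists were thus called again on either day far more often than all tested intervals, and because days 7 and 11 gave lists of different length, no order between the days is read from these shares.

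The 2048 intervals higher in pMN than in p2 had medians of 0.66, 1.25, 1.33 and 0.56 over days 5, 7, 9 and 11. Of these, 64.8% were also called higher on day 7 (64.6% without the doubted libraries), against 2.25% of all tested intervals, and 16.6% on day 11, against 0.654%. The 6007 intervals lower in pMN than in p2 had medians of 0.18, −0.79, −1.35 and −0.94, and without the doubted libraries the day 7 medians of these lists were 1.26 and −0.77. On day 5 the difference had the opposite sign at most of these, with 39.9% negative, against 56.4% of all tested intervals. Their median log2 level was 4.96, 4.66, 4.64 and 4.47 in pMN over the 4 days and 4.69, 5.55, 6.13 and 5.55 in p2. The choice by itself raises the p2 level and lowers the pMN level on day 9. On days 5, 7 and 11, which took no part in the choice, the levels ran from 4.47 to 4.96 in pMN and from 4.69 to 5.55 in p2. At Interval_152633, pMN minus p2 was 0.47, −1.35, −3.36 and −2.11 on days 5, 7, 9 and 11, and at Interval_66643 it was 1.10, −1.85, −2.95 and −2.81.

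Changed intervals highest in p2 on day 9 were mostly highest in another population on day 5, and so were all tested intervals with p2 highest on day 9. Where p2 was the highest population of a changed interval on day 9, it was also the highest on day 5 at 16.0%, on day 7 at 78.8% and on day 11 at 69.7%, against 21.0%, 40.0% and 40.0% among all tested intervals with p2 highest on day 9. For intervals highest in pMN the shares were 79.6%, 92.0% and 76.1%, against 39.6%, 57.8% and 63.2%, and the day 7 shares without the doubted libraries were 77.6% for p2, 93.2% for pMN and 84.2% for p0-p1. For those highest in p0-p1 they were 53.6%, 84.4% and 90.3%, against 50.0%, 63.8% and 58.9%. The intervals higher in p2 than in p0-p1 had median differences of 0.39, 0.87, 1.29 and 0.63 over days 5, 7, 9 and 11. The intervals lower in p2 had −0.25, −0.68, −1.33 and −1.31. Without the doubted libraries, none of which is a MUT p2 or p0-p1 library, the day 7 medians were again 0.87 and −0.68. Of the intervals lower in p2, 27.2% were also called lower on day 7, against 1.08% of all tested intervals, and 65.7% on day 11, against 3.95%. Of the 36 entries among the named intervals, which cover 28 intervals, the sign of the named difference on day 9 was the same in all 36 on day 7, on day 11 and in WT NFIAn cells of day 9, and in 31 on day 5; without the doubted libraries it was the same in all 36 on day 7.

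**Figure D5:**
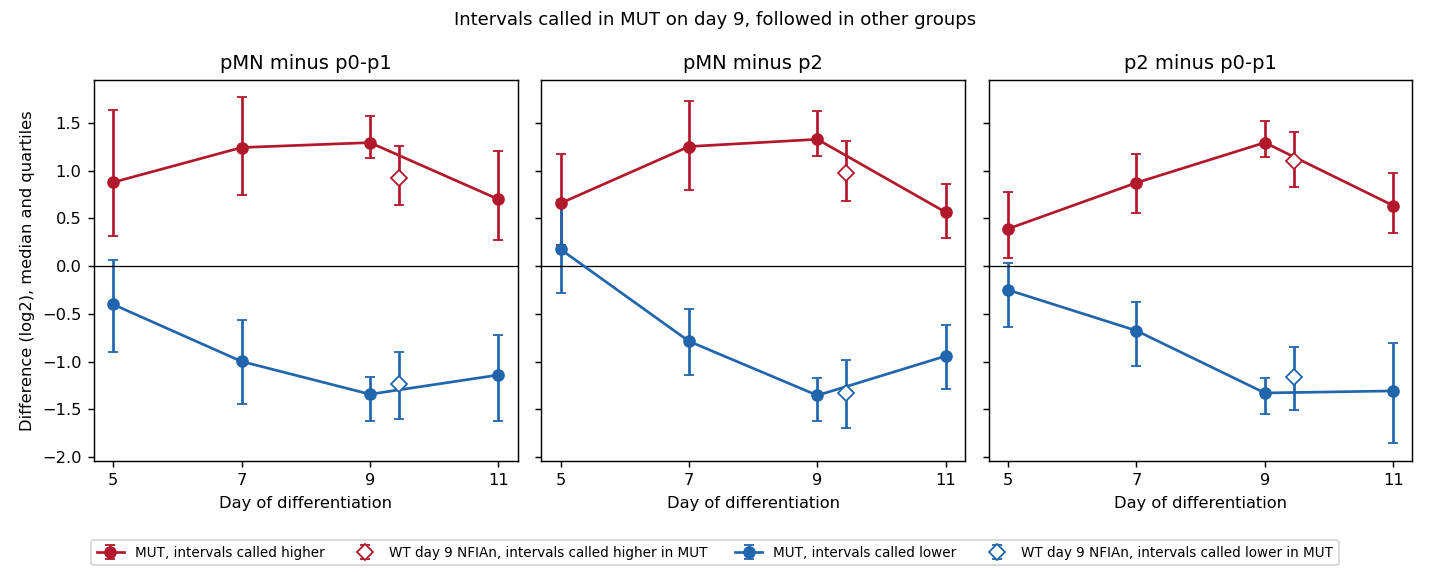
Median log2 difference over MUT days 5, 7, 9 and 11, with quartiles, at the 6 lists of intervals called on day 9, with WT NFIAn cells of day 9 as open diamonds. The list lower in pMN than in p2 has a median above 0 on day 5 (0.18) and below 0 on the later days (−0.79, −1.35 and −0.94). The lists were chosen on day 9, which by itself favours the largest difference on that day.

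The tests of a change in the population difference between day 9 and its neighbours called intervals mainly for pMN against p0-p1. Between day 9 and day 7, 640 intervals (0.411%) had a changed difference of pMN minus p0-p1, 116 of them with a higher and 524 with a lower value on day 9. Without the doubted libraries these numbers were 104 and 636. The 524 lower ones had a median of −0.30 on day 9 and 1.16 on day 7, and 1.73 on day 5. Between day 9 and day 11, 1406 intervals (0.903%) changed, 1006 with a higher and 400 with a lower value on day 9, and the 1006 had a median of 0.61 on day 9, 1.12 on day 7 and −0.91 on day 11. These intervals were picked by the contrasts whose medians are given, so the medians describe them. Both counts fell strongly when certain single libraries were left out. Leaving out a library by itself makes the mean of its group less certain, and this part was not separated. The count against day 7 was 5 without MUT day 9 pMN replicate 1, 137 and 105 without MUT day 9 p0-p1 replicates 1 and 2, 237 without MUT day 7 pMN replicate 1 and 208 without MUT day 7 p0-p1 replicate 3. The count against day 11 was 100 without MUT day 9 pMN replicate 2, 337 and 456 without MUT day 9 p0-p1 replicates 1 and 2, 448 and 820 without MUT day 11 p0-p1 replicates 1 and 2, and 831 and 610 without MUT day 11 pMN replicates 1 and 2. Without the doubted libraries, which change the common estimate of the spread, it was 2152.

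For pMN minus p2, 1 interval (0.000642%) changed between day 9 and day 7, and 11 (0.00706%) changed between day 9 and day 11. The 1 interval, Interval_34968, had 84.8 and 79.9 normalised reads in pMN and 374 and 385 in p2 on day 9, and 169 to 261 in pMN and 240 to 297 in p2 on day 7. It is named because of the count of 1, after its values were seen, and its pMN minus p2 difference was lower on day 9 by a log2 value of −1.71 with a standard error of 0.27 (limma, adjusted p = 0.00499). The count was again 1 without the doubted libraries. It was 0 without MUT day 9 pMN replicate 1, MUT day 9 p2 replicate 2, MUT day 7 pMN replicate 1 or MUT day 7 p2 replicate 3, and 2 to 20 without 1 of MUT day 9 p2 replicate 1 or pMN replicate 2, or MUT day 7 p2 replicate 1, p0-p1 replicate 2 or pMN replicate 2. The count of 11 was 0 to 7 without any 1 of 13 libraries, among them MUT day 9 pMN replicate 1 and p2 replicate 2 with 0 each, and 26 without MUT day 9 p2 replicate 1. For p2 minus p0-p1, 0 intervals (0%) changed between day 9 and day 7, with 6885 at an unadjusted p under 0.05 by limma, and edgeR and DESeq2 also called 0, with 6094 and 3882 at an unadjusted p under 0.05. Between day 9 and day 11, 67 intervals (0.043%) changed, 35 higher and 32 lower on day 9. This count was 0 without MUT day 9 p2 replicate 2, 142 without MUT day 9 p2 replicate 1, 2 and 3 without MUT day 9 p0-p1 replicates 1 and 2, 1 and 16 without MUT day 11 p0-p1 replicates 1 and 2, and 2, 11 and 25 without MUT day 11 p2 replicates 1, 2 and 3. Without the doubted libraries the counts against day 11 were 28 for pMN minus p2 and 150 for p2 minus p0-p1.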

How the data were processed

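Chromatin accessibility was profiled in sorted, fixed progenitors with CaTS-ATAC, an ATAC-seq protocol in which cells are transposed, stained for intracellular markers and sorted, per the labels' protocols. Reads were placed on mm10, per the submitters' processing notes; the peak caller and the counting tool are not given in the sources used here. The authors deposited 1 table of signal for 155738 numbered intervals in 71 libraries, whose values proved to be whole read counts divided by 1 factor per library: 100% of values were whole multiples within 0.01. No column of the table was left unassigned.

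Differences were tested with limma 3.58.1 in R 4.3.3 on log2(value + 5), in 1 fit of 26 group means over all 71 libraries, because each MUT day 9 group holds 2 libraries, with a mean-variance trend. Intervals that reached 10 in 2 or more libraries were tested, which kept 155734. P-values were adjusted by Benjamini-Hochberg, and a call needed an adjusted value below 0.05 together with a log2 difference of 1 or more in size. A fold change on the log2(value + 5) scale understates the change of weak intervals. An exact permutation test of 2 against 2 libraries cannot reach 0.05 and was not used. Changes of a population difference between genotypes or days were tested as interaction contrasts of the same fit. edgeR 4.0.16 and DESeq2 1.42.0 on the recovered reads, other pseudocounts, filters, scalings, library weights, replicate blocks and leaving out libraries were tried as alternatives. The scripts were tested on simulated data. Figures were drawn with Python 3.11.15 and matplotlib 3.10.9.

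Named intervals were the 4 per comparison and direction with the largest difference, at or above the median mean value and with no overlap between the groups' libraries, and for each population the 2 furthest above and the 2 furthest below both others. The comparisons, the lists and the naming rule were chosen with earlier results of these data known. The table pairs no interval with a position or gene, so no sequence, motif or gene list was used here.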

Additional observations from a re-analysis of the deposited data

Results flagged for a closer look

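The population difference itself changed between MUT day 9 and another MUT day in 5 comparisons, by limma's test of that difference (adjusted p below 0.05, log2 change of 1 or more in size). For pMN minus p0-p1, 640 intervals differed between day 9 and day 7, and 1406 between day 9 and day 11. For pMN minus p2, 1 interval differed between day 9 and day 7, and 11 between day 9 and day 11. For p2 minus p0-p1, 67 intervals differed between day 9 and day 11. Each count fell strongly when certain single libraries were left out. For pMN minus p0-p1 the lowest counts came without MUT day 9 pMN replicate 1 (against day 7) and replicate 2 (against day 11). In the other 3 comparisons, leaving out MUT day 9 p2 replicate 2 gave a lowest count. A group left with 1 library by itself has a less certain mean.

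Of the 28 named intervals, 4 were among the 1406, which were 0.903% of all tested intervals. The named intervals were chosen for large differences in these day 9 libraries, which by itself favours a larger difference on day 9 than on day 11. The values below are a description. At Interval_59792 the pMN minus p0-p1 difference was larger on day 9 by 2.14 on the log2 scale: pMN had 82.9 and 131 normalised reads on day 9 and 32.3 to 58.8 on day 11, and p0-p1 had 5.77 and 8.15 on day 9 and 11.6 to 23.1 on day 11. At Interval_133561 it was larger by 2.97, with 124 and 174 in pMN on day 9 against 32.7 to 52.2 on day 11, and 9.62 and 12.7 in p0-p1 on day 9 against 24.8 to 39.4 on day 11. At Interval_132147 it was larger by 2.93, with 163 and 237 in pMN on day 9 against 37.2 to 51.3 on day 11, while p0-p1 had 118 and 124 on day 9 against 193 to 284 on day 11. At these 3 intervals pMN was higher and p0-p1 lower on day 9 than on day 11, with no overlap in either population. At Interval_128131 the change was −1.65, with 12.8 and 14.9 in pMN on day 9 against 4.36 to 6.86 on day 11, and 224 and 191 in p0-p1 on day 9 against 26.5 to 47.5 on day 11, so that both populations were higher on day 9.

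Among the 11 intervals of pMN minus p2, Interval_149342 had 128 and 144 normalised reads in pMN on day 9 against 276 to 352 on day 11, and 21.9 and 15.8 in p2 on day 9 against 159 to 228 on day 11. Interval_56269 had 9.86 and 32.5 in pMN and 84.6 and 221 in p2 on day 9, against 4.90 to 6.54 in pMN and 3.82 to 9.17 in p2 on day 11. Both were picked after their values were seen. In the first the smaller difference on day 11 came with higher p2 levels, and in the second with low levels in both populations.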

How the results depend on the processing

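Among the 363 values of named intervals under alternatives, 358 kept their direction and their side of the threshold and 5 lost the call when a library was left out, at Interval_132147 (p2 minus p0-p1) and Interval_36298 (pMN minus p2); none reversed. The counts moved more, and where no cause is given the cause was not tested. With a pseudocount of 20, which shrinks the differences of weak intervals, the F-test called 8240 intervals, pMN minus p0-p1 2076 higher and 3286 lower, pMN minus p2 892 and 2921, and p2 minus p0-p1 1410 and 665. With a minimum mean of 30, which tests fewer intervals, the F-test called 10069, pMN minus p0-p1 2832 and 4240, pMN minus p2 1102 higher, and p2 minus p0-p1 803 lower. DESeq2 called 10703 by all populations, 4885 lower for pMN minus p0-p1, 1194 higher for pMN minus p2, and 1945 higher and 746 lower for p2 minus p0-p1; a fit of only the groups compared called 1500 lower for the last pair. Leaving out 1 library gave 12160 to 18749 by the F-test, 3034 to 4600 and 5235 to 8645 for pMN minus p0-p1, 971 to 2056 and 2171 to 6370 for pMN minus p2, and 766 to 2957 and 679 to 2397 for p2 minus p0-p1, higher and lower. The share of higher calls for p2 minus p0-p1 was 68.0% with a pseudocount of 20 and 72.3% by DESeq2.

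The tests against WT day 9 called 0 throughout except for 2 (pMN minus p0-p1, replicate block within genotype and day) and 1 (pMN minus p2, pseudocount 1), and 0 in each run without 1 library. For pMN minus p0-p1 against day 7 the count was 307 with a pseudocount of 1, 1124 with 20, 1103 with only the groups compared, 1451 with library weights, 1537 by DESeq2, and 5 to 847 without 1 library. Against day 11 it was 614, 2217, 7255 with weights, 2152 without the doubted libraries, and 100 to 1565 without 1 library. For pMN minus p2 against day 7 it was 200 with a pseudocount of 20, 19 with the minimum of 30, 16 with quantile scaling, 30 with only the groups compared, 79 with weights, 25 and 22 by edgeR without and with TMM, 411 by DESeq2, and 0 to 20 without 1 library. Against day 11 it was 0 and 109 with pseudocounts of 1 and 20, 7 with equal totals, 0 with only the groups compared, 325 with weights, 28 without the doubted libraries, 3 and 3 by edgeR, 49 by DESeq2, and 0 to 26 without 1 library. For p2 minus p0-p1 against day 7 it was 10 with a pseudocount of 20, 2 with weights and 0 in each run without 1 library, and against day 11 it was 8 and 515 with pseudocounts of 1 and 20, 205 with quantile scaling, 1677 with weights, 150 without the doubted libraries, 600 by DESeq2, and 0 to 142 without 1 library.

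The replicate numbers give only 2 pairs and are not stated to mark a shared culture, so the samples were not treated as paired, although the data hint at a shared replicate effect: replicate differences correlated across intervals at r = 0.22 (pMN and p0-p1), 0.34 (pMN and p2) and 0.27 (p2 and p0-p1), the third principal component (15.8%) placed every replicate 1 below 0 and every replicate 2 above it, and 9451 intervals of consecutive numbers lay lower in replicate 1 (median shift −0.23 to −0.22) than in replicate 2 (−0.0549 to −0.0418) in each population. With the replicate block within genotype and day the counts of changed differences were 3660 and 5413 for pMN minus p0-p1 against days 7 and 11, 1021 and 221 for pMN minus p2, and 30 and 2243 for p2 minus p0-p1. With a replicate block of MUT day 9 alone, 24 intervals were called for pMN minus p2 against day 7, and the F-test called 18001.

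The root mean square difference was 0.62, 0.48 and 0.43 with a pseudocount of 1 and 0.36, 0.30 and 0.25 with 20, for pMN and p0-p1, pMN and p2, and p2 and p0-p1. For pMN and p0-p1 it was 0.52 and 0.52 with quantile scaling and equal totals. Without 1 library the ranges were 0.49 to 0.53, 0.35 to 0.48 and 0.32 to 0.40, which overlap for the last 2 pairs. The position of p2 ranged over 0.33 to 0.47 and 0.46 to 0.62 without 1 library, at intervals higher and lower in pMN than in p0-p1. The position of p0-p1 was 0.0397, −0.0462 and 0.0365 with pseudocounts of 1 and 20 and equal totals at intervals higher in pMN than in p2, with −0.0241 to 0.164 without 1 library, and 0.66 and 0.52 with both pseudocounts at the lower ones, with 0.46 to 0.72. The position of pMN was 0.40 with a pseudocount of 1 at intervals higher in p2 than in p0-p1, with 0.19 to 0.58 without 1 library, and 0.0505, −0.0809 and 0.00771 with pseudocounts of 1 and 20 and quantile scaling at the lower ones, with −0.113 to 0.132. The WT medians at intervals lower in pMN than in p0-p1 were −1.48, −1.16, −1.21 and −1.23 with pseudocounts of 1 and 20, quantile scaling and equal totals, and −1.36 to −1.23 without 1 library. At intervals lower in pMN than in p2 they were −1.53 and −1.23 with both pseudocounts and −1.57 to −1.28 without 1 library. For p2 minus p0-p1 they were 1.24 with a pseudocount of 1 and 1.09 to 1.27 without 1 library at the higher intervals, and −1.40, −1.08, −1.13 and −1.13 with pseudocounts of 1 and 20, quantile scaling and equal totals, and −1.30 to −1.16 without 1 library, at the lower ones.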

Other observations

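Called intervals followed each other in number more often than the share of calls. An interval with the next number was called in the same direction after 7.89% of the intervals higher in pMN than in p0-p1 and after 10.1% of those lower, against 2.96% and 5.55% of all tested intervals. For pMN against p2 these shares were 3.37% and 8.26%, against 1.32% and 3.86%, and for p2 against p0-p1 they were 5.79% and 3.03%, against 1.91% and 1.55%. Whether consecutive numbers are neighbours in the genome is not stated in the table.

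The longest run, picked after its values were seen, held 12 intervals higher in pMN than in p2, Interval_20803 to Interval_20814. Their summed normalised reads were 1207 and 1334 in pMN, 261 and 275 in p2, and 237 and 265 in p0-p1 on MUT day 9. The sum in MUT pMN averaged 406 ± 47.1 on day 5, 1100.4 ± 124 on day 7, 1271 ± 89.5 on day 9 and 448 ± 31.2 on day 11 (SD, n = 3, or 2 on day 9), while p0-p1 averaged 251 to 314 and p2 238 to 312 on the same days. WT pMN averaged 457 ± 63.1 on day 5 (SD, n = 2), 1049 ± 393 on day 7 (SD, n = 3), 950 and 1569 in the libraries of NFIAn cells on day 9, 1355 ± 388 in NFIAp cells on day 9 and 407 ± 40.8 in NFIAp cells on day 11 (SD, n = 3 each). The run was thus high in pMN on days 7 and 9 in both genotypes; the MUT day 7 sums were 963, 1136 and 1202, the last in the library doubted above, and the WT day 7 mean includes another of the doubted libraries. A run of 8 intervals higher in pMN than in p0-p1, Interval_60782 to Interval_60789, summed to 3973 and 4166 in pMN, 1958 and 2173 in p2, and 987 and 1134 in p0-p1, graded in that order. A run of 7 intervals lower in pMN than in p2, Interval_48262 to Interval_48268, summed to 145 and 233 in pMN, 444 and 643 in p2, and 606 and 704 in p0-p1.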
